A study of Homo sapiens with 9 samples.

Results

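The regions described here are the open chromatin of the peak-rich stretches of the genome of VCaP prostate cancer cells. Peaks of 9 ATAC-seq libraries on chromosomes 1 to 22 were merged wherever they overlapped by at least 1 bp, and a merged region was kept where 2 or more of the 3 libraries of some group called it. The genome was then divided into 5 Mb bins counted from the start of each chromosome, and a bin was taken as peak-rich if the midpoints of at least 200 kept regions lay in it. This left 46 of 566 bins (8.13%), which held 11053 of the 64569 kept regions (17.1%). The bins were thus chosen by a measured value, the number of called regions, so density and how regularly the regions were called are given below as descriptions with no test.

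The libraries fell into 3 groups of 3. VCaP16 held an enzalutamide-resistant derivative of VCaP grown in 16 µM enzalutamide, VCaP_ENZ held VCaP cells given 10 µM enzalutamide for 96 h, and VCaP_DMSO held VCaP cells given the solvent. All were grown in DMEM with fetal bovine serum and are labelled wild type. The labels do not say whether VCaP16 is 1 clone, and it was never measured without the drug, so that line and drug cannot be told apart and the drug groups also differ in dose. Whether the replicates were separate cultures is not stated, so the p-values below rest on variation among these libraries alone, and that variation could be purely technical. Cell identity was not checked against marker genes, because the regions are positions on hg19 and none was assigned to a gene.

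ATAC-seq marks DNA that the transposase Tn5 can reach, and such sites are mostly promoters and enhancers. Open sites crowd together where genes do, and chromosome 19 is known as the most gene-dense human chromosome. VCaP is a line from a prostate cancer metastasis that depends on androgen signalling. Enzalutamide blocks the androgen receptor, a hormone-driven transcription factor that acts largely from enhancers. Sequences of the regions are not shown, since no hg19 genome was used here.

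The peak-rich bins were spread over 19 chromosomes and made up most of chromosome 19. Chromosome 19 had 7 of them and chromosomes 1 and 17 had 6 each, while chromosomes 2, 10 and 18 had none. On chromosome 19 the 7 bins held 1840 of its 2460 kept regions (74.8%), and on chromosome 17 the 6 bins held 51.6% of that chromosome's kept regions. The most crowded bin lay on chromosome 11 from 65000001 to 70000000, with 348 kept regions. It was followed by the bins at chromosome 19, 45000001 to 50000000, with 342 regions and at chromosome 17, 75000001 to 80000000, with 320. The next were those at chromosome 11, 60000001 to 65000000, with 319 regions and at chromosome 16, 1 to 5000000, with 303. A peak-rich bin had a median of 227.5 kept regions, against 106 over all 566 bins.

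**Figure D1:**
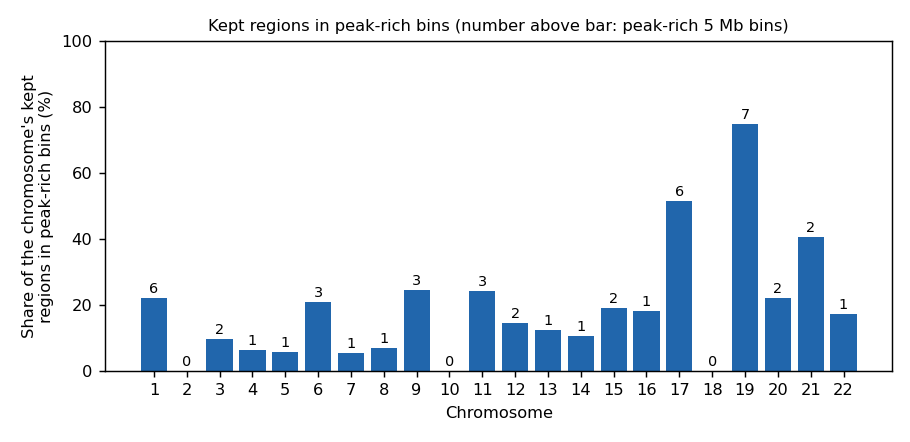
Share of each chromosome's kept regions that lay in peak-rich 5 Mb bins, in percent, with the number of such bins above each bar. Chromosome 19 stands highest at 74.8%, chromosome 17 next at 51.6%, and chromosomes 2, 10 and 18 are at 0.

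Many of these bins were neighbours. The 46 bins formed 33 stretches, and 23 bins lay next to another peak-rich bin. The longest stretch ran over 4 bins on chromosome 19 from 35000001 to 55000000 and held 1063 regions, and the next over 3 bins on chromosome 17 from 35000001 to 50000000 with 754. The threshold cut through a continuous range of densities. Just inside it were bins on chromosomes 5 and 6 with 203 regions, 3 and 9 with 202 and 7 with 201. Just outside were bins on chromosome 12 with 199 and 198, on chromosome 22 with 198 and on chromosomes 1 and 17 with 197. Together the regions covered 8.37 Mb, with a median distance of 7.67 kb to the nearest kept region. Within the bins 83 of 2300 windows of 100 kb (3.61%) held no kept region. The fullest window, at chromosome 11, 65200001 to 65300000, held 20 regions, and the fullest window on chromosome 16, 700001 to 800000, held 18.

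The regions in peak-rich bins were called more regularly than the other kept regions, which the choice of bins itself favours. In all, 6475 of 11053 (58.6%) were called in every one of the 9 libraries, against 25885 of 53516 other kept regions (48.4%). Regions called in 2 or 3 libraries made up 9.45% of them and 12.7% of the other kept regions. Merged regions were slightly wider, with a median of 674 bp (quartiles 485 and 939 bp) against 632 bp (462 and 873 bp). Among regions called in all 9 libraries the medians were closer, at 842 and 835 bp. The authors' score, used here only to rank peaks within a list, placed these peaks high. Between 14.0% and 14.6% of the peaks in peak-rich bins were in the top 10% of their own list, against 8.99% to 9.15% of the peaks elsewhere. Peak-rich bins held 31.1% to 35% of the 1000 best-scored peaks of a library but 16.8% to 18.2% of all its autosomal peaks. Median peak widths were 438 to 492 bp in these bins and 399 to 441 bp outside them. The lowest value over the 9 libraries inside the bins was above the highest outside for the share of top-ranked peaks, but not for the peak width. Within every single library, the median peak width was larger inside the bins than outside.

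The widest regions called in all 9 libraries did not lie in a single bin. The widest spanned 4676 bp at chromosome 11, 65212553 to 65217228, in the fullest 100 kb window, and its best peak ranked 3.16% to 12.5% from the top of each list. A region of 3566 bp at chromosome 17, 79464943 to 79468508, ranked 18.1% to 33.2% from the top. Regions of 3318 bp at chromosome 12, 52453942 to 52457259, and 3131 bp at chromosome 5, 179032418 to 179035548, ranked lower, with median positions of 56.0% and 62.9% from the top. The fifth, of 2926 bp, lay at chromosome 11, 69469014 to 69471939, with a median position of 12.7%. The widest regions therefore included both high and low scores.

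Single libraries called between 78.8% and 90.8% of these regions. VCaP16 libraries called 83.0%, 85.0% and 90.8% of the 11053 regions. VCaP_ENZ libraries called 79.2%, 86.6% and 78.8%. VCaP_DMSO libraries called 83.8%, 81.0% and 80.3%. The groups overlapped, and the highest values came from the longest lists, VCaP16 replicate 3 with 67304 autosomal peaks and VCaP_ENZ replicate 2 with 60348, where the other 7 lists had 52467 to 56522. The share of all 64569 kept regions called was 79.7%, 79.9% and 89.1% in VCaP16, 75.2%, 83.4% and 74.8% in VCaP_ENZ and 79.5%, 76.0% and 74.9% in VCaP_DMSO. The lists hold no read counts, so the depth behind them is unknown.

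To set libraries of different list length side by side, the share of all kept regions called in a library was subtracted from the share called in peak-rich bins. This relative share, in percentage points, was above 0 in all 9 libraries. In VCaP16 it was 3.35, 5.13 and 1.67 points. In VCaP_ENZ it was 4.07, 3.23 and 3.93 points. In VCaP_DMSO it was 4.32, 5.01 and 5.36 points. All 3 VCaP_ENZ libraries lay below all 3 VCaP_DMSO libraries, whereas VCaP16 spread from below to above the VCaP_ENZ values. The lowest value belonged to VCaP16 replicate 3, the library with the longest list.

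The relative share was higher in each denser class of bins, in every group. In bins with fewer than 50 kept regions it averaged -5.21 ± 2.44 points in VCaP16, -7.41 ± 0.821 in VCaP_ENZ and -6.50 ± 0.714 in VCaP_DMSO (SD, n = 3 each). In bins with at least 100 but fewer than 150 regions the means were -1.10, -0.58 and -1.30 points in VCaP16, VCaP_ENZ and VCaP_DMSO. In the peak-rich bins they were 3.38 ± 1.73, 3.74 ± 0.452 and 4.90 ± 0.529 points in the same groups (SD, n = 3 each). The separation of VCaP_ENZ from VCaP_DMSO was not limited to these bins. With at least 150 but fewer than 200 regions, every VCaP_ENZ library also lay below every VCaP_DMSO library (means 1.73 and 2.28 points). With at least 50 but fewer than 100 regions, every VCaP_ENZ library lay above (means -2.72 and -3.17 points). The same held from 100 to below 150 regions, and below 50 regions these groups overlapped. Since the overall share of the same library was subtracted, values above 0 in dense bins must be matched by values below 0 elsewhere.

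**Figure D2:**
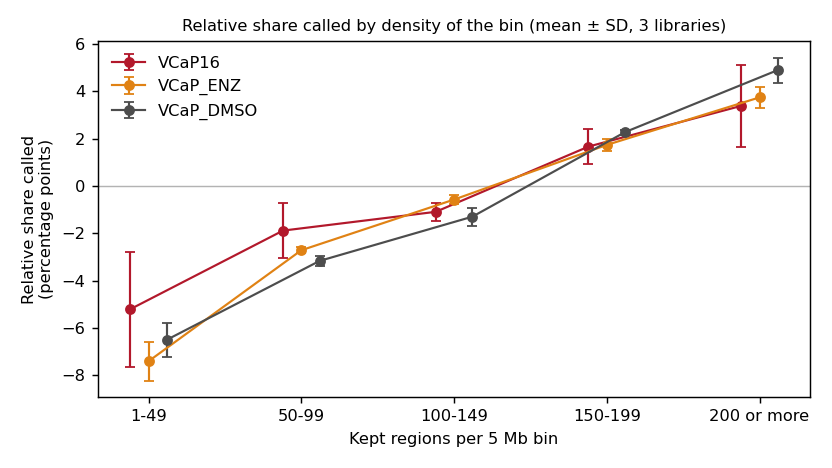
Relative share called, in percentage points, against the number of kept regions per 5 Mb bin, as mean ± SD of 3 libraries for VCaP16 (red), VCaP_ENZ (orange) and VCaP_DMSO (grey). In every group the mean is higher in each denser class, and in the densest class the VCaP_DMSO mean of 4.90 points stands above 3.38 in VCaP16 and 3.74 in VCaP_ENZ.

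Short exposure to enzalutamide was set against the solvent. The relative share in peak-rich bins was 1.16 points lower in VCaP_ENZ than in VCaP_DMSO, with a two-sided exact permutation p of 0.1, the smallest that 3 against 3 libraries allow (0.4 after Benjamini-Hochberg adjustment over 8 tests). The direction held in 17 of 17 other settings, of which 1, the block by replicate number, could not change the difference. The settings reuse the same libraries. Measured on the lists alone, 17.81%, 17.48% and 17.73% of the autosomal peaks of the VCaP_ENZ libraries lay in peak-rich bins, against 17.82%, 17.96% and 18.10% for VCaP_DMSO. Again every VCaP_ENZ library was below every VCaP_DMSO library, by 0.29 points on average (exact permutation p = 0.1, 0.4 after adjustment). With lists cut to the same 52467 best-scored peaks the relative share was 4.17, 4.66 and 3.93 points in VCaP_ENZ and 4.98, 5.08 and 5.39 points in VCaP_DMSO, and the groups did not overlap. The separation was not kept everywhere: the groups overlapped in the peak share with lists of equal length (exact permutation p = 0.2), and in both measures with a score of at least 5 (exact permutation p = 0.2 for each). Among the 4578 regions in peak-rich bins that were not called in all 9 libraries, it was -0.36, 0.98 and -0.82 points in VCaP_ENZ and 2.03, 2.27 and 2.66 points in VCaP_DMSO. The exact permutation test cannot go below 0.1 for these 6 libraries.

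The resistant line was set against the solvent and against short exposure. Its relative share averaged 1.51 points less than in VCaP_DMSO (exact permutation p = 0.3, and 0.533 adjusted over 8 tests) and 0.36 points less than in VCaP_ENZ (exact permutation p = 0.8, and 0.8 adjusted). Against all 6 VCaP libraries the difference was -0.94 points (3.38 ± 1.73 in VCaP16, n = 3, and 4.32 ± 0.771 in VCaP, SD, n = 6), and the exact permutation p was 0.286 (smallest possible 0.0119 with 84 splits), or 0.533 after adjustment. Each of these differences was smaller than the SD of the VCaP16 libraries. The differences of 1.51 and 0.94 points did exceed the SD of the libraries they were set against, 0.529 points in VCaP_DMSO and 0.771 points in VCaP. The VCaP16 value rested on replicate 3. Without it the difference was -0.66 points from VCaP_DMSO, -0.08 points from the 6 VCaP libraries and turned to 0.50 points against VCaP_ENZ. Without VCaP16 replicate 2 the differences grew to -2.39, -1.81 and -1.23 points in the same order. With lists of equal length the values of VCaP16 were 4.11, 5.34 and 4.11 points, so that replicate 3 no longer stood apart, and the difference from VCaP_DMSO was -0.63 points. Of the autosomal peaks of VCaP16 libraries, 17.5%, 18.2% and 16.8% lay in peak-rich bins, a range that brackets the VCaP_ENZ and VCaP_DMSO values. The differences in that share were -0.46 points from VCaP_DMSO, -0.17 from VCaP_ENZ and -0.31 from the 6 VCaP libraries (exact permutation p = 0.4, 0.8 and 0.333, and 0.533, 0.8 and 0.533 adjusted). Without VCaP16 replicate 3 they were -0.125, 0.165 and 0.0203 points.

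**Figure D3:**
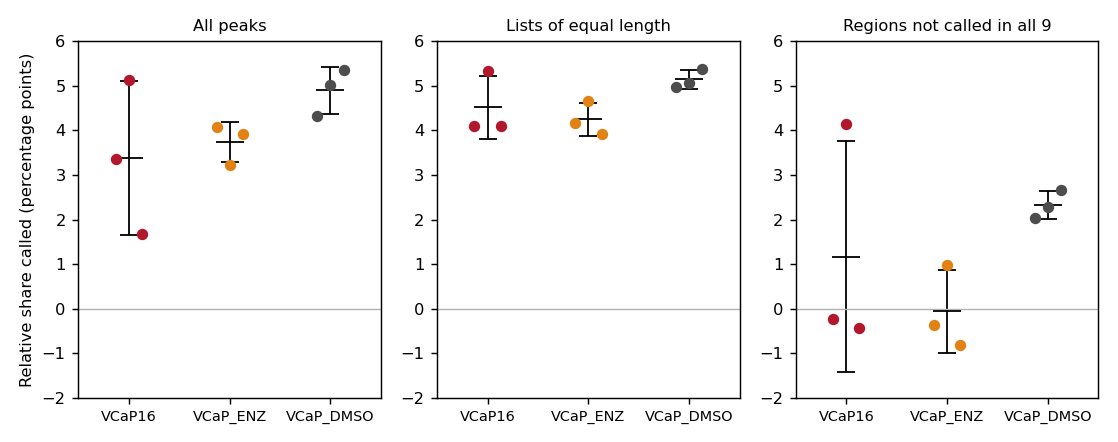
Relative share of regions in peak-rich bins that was called, in percentage points, per library (points) with the group mean ± SD (black), for all peaks, for lists of equal length and for regions not called in all 9 libraries. The VCaP_ENZ points lie below the VCaP_DMSO points in all 3 panels, while the VCaP16 points range from 1.67 to 5.13 points in the first.

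The bins differed among themselves. Over the 9 libraries the mean share called ran from 78.4% to 87.7% with a median of 83.0%, against 58.0% to 89.5% with a median of 78.3% over the 550 bins that held at least 20 kept regions. The highest was the bin at chromosome 6, 25000001 to 30000000, where 85.3%, 87.1% and 94.9% of 217 regions were called in VCaP16, 88.0%, 91.2% and 85.7% in VCaP_ENZ and 85.3%, 86.2% and 85.7% in VCaP_DMSO. Next came the bins at chromosome 19, 35000001 to 40000000, with a mean of 87.1%, and at chromosome 1, 1 to 5000000, with 87.0%. The lowest were those at chromosome 9, 110000001 to 115000000, with 78.4%, at chromosome 8, 140000001 to 145000000, also with 78.4%, and at chromosome 22, 35000001 to 40000000, with 78.9%. The relative share was above 0 in 33 of the 46 bins in VCaP16 replicate 3, the lowest number of the 9 libraries, and in 44 in VCaP16 replicate 2, the highest.

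**Figure D4:**
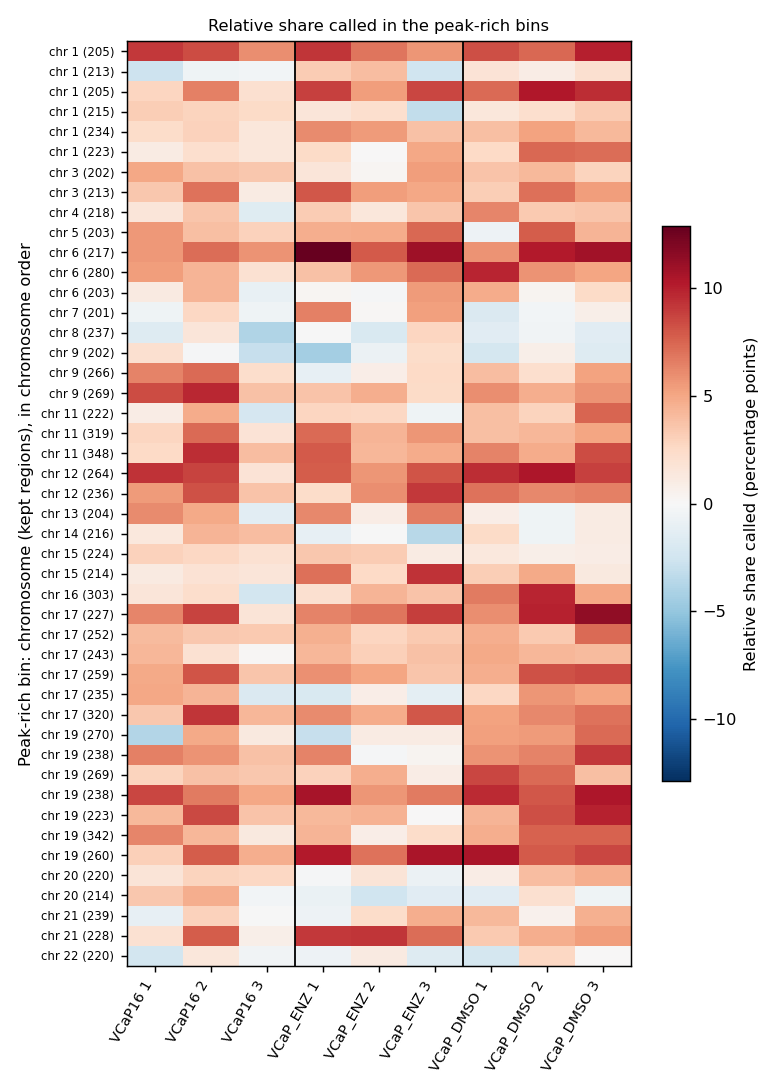
Relative share called, in percentage points (red above 0, blue below), in the 46 peak-rich bins (rows, by chromosome, with the number of kept regions) and the 9 libraries (columns, VCaP16, VCaP_ENZ and VCaP_DMSO from left to right). The 7 rows of chromosome 19 are darker on average in the VCaP_DMSO columns, with means of 4.29, 3.79 and 7.39 points over their regions in the same order of groups.

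Each bin was then tested with limma, a moderated linear model, on its relative share in the 9 libraries, with Benjamini-Hochberg adjustment over all 550 bins and a call at an adjusted p below 0.05. The p-values rest mainly on a spread pooled over the bins, and a bin's own spread enters them little. For 3 against 3 libraries the SE ran from 1.72 to 1.88 points in peak-rich bins. The SD of the VCaP_DMSO libraries ran from 0.262 to 4.24 points there. In the resistant line against the solvent, 1 of the 46 peak-rich bins was called lower and 0 higher, where over all 550 bins 2.36% were called lower and 2.55% higher. At an unadjusted p below 0.05 there were 6 peak-rich bins, all lower, against 100 of the 550 bins, of which 61 were higher and 39 lower. The estimate was below 0 in 35 of 46 peak-rich bins (76.1%) and in 269 of 550 bins (48.9%), with medians of -1.53 and 0.11 points. Every VCaP16 library lay below every VCaP_DMSO library in 8 of the 46 bins (background 11.6%) and above in 1 (background 12%). For short exposure against the solvent, 1 bin was called lower and 0 higher, where the background was 0.545% in each direction. Here 10 peak-rich bins had an unadjusted p below 0.05, 7 lower and 3 higher, against 82 of the 550 bins, 41 lower and 41 higher. Estimates were below 0 in 32 of 46 bins (69.6%) and in 265 of 550 (48.2%), with medians of -1.33 and 0.09 points. Every VCaP_ENZ library lay below every VCaP_DMSO library in 6 bins (background 8%) and above in 1 (background 9.45%). Both comparisons use the same VCaP_DMSO libraries. Between VCaP16 and VCaP_ENZ limma called 0 peak-rich bins, where the background was 1.45% (0.727% higher and 0.727% lower) and 9 of the 46 had an unadjusted p below 0.05, 4 higher and 5 lower, against 89 of the 550 bins, 42 higher and 47 lower. All VCaP16 libraries were above all VCaP_ENZ libraries in 4 bins (background 8.36%) and below in 3 (background 10.7%). Against the 6 VCaP libraries 1 bin was called lower (background 1.82%) and 0 higher (1.64%), with 8 at an unadjusted p below 0.05, 3 higher and 5 lower, against 103 of the 550 bins, 59 higher and 44 lower. All VCaP16 libraries were below all 6 in 1 bin (background 4.36%) and above in 0 (background 4%).

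The bin called lower in VCaP16 was the start of chromosome 16, 1 to 5000000, with 303 kept regions. There 81.2%, 82.2% and 86.8% of the regions were called in VCaP16, 77.2%, 87.8% and 78.5% in VCaP_ENZ and 86.1%, 85.8% and 79.9% in VCaP_DMSO. These raw shares overlapped between the groups. After subtracting each library's overall share the values were 1.52, 2.28 and -2.33 points in VCaP16, 2.08, 4.41 and 3.71 points in VCaP_ENZ and 6.64, 9.81 and 4.97 points in VCaP_DMSO, so that each VCaP_DMSO library stood above the other 6. The difference between VCaP16 and VCaP_DMSO was -6.65 ± 1.75 points (SE, limma adjusted p = 0.0120), that between VCaP_ENZ and VCaP_DMSO was -3.74 ± 1.75 points (adjusted p = 0.277), and that from the 6 VCaP libraries was -4.78 ± 1.51 points (adjusted p = 0.0475, kept in 4 of 18 other settings with adjusted p from 0.0223 to 0.281). The first call was kept in 9 of 15 other settings, with adjusted p from 0.00249 to 0.158. It was lost without VCaP16 replicate 1 (0.0507), VCaP16 replicate 3 (0.119) or VCaP_DMSO replicate 2 (0.158). It was also lost when a peak had to cover 50% of the region (0.0669), with all merged regions (0.0914) and without a variance trend (0.109). In this bin 4 of the 303 regions were called in all VCaP_DMSO and no VCaP16 library (background over all kept regions 0.765%), and 3 showed the reverse (2.32%). Against VCaP_ENZ, 5 regions of this bin were called in all VCaP_DMSO and no VCaP_ENZ library (background 0.805%) and 0 showed the reverse (0.932%).

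The bin called lower in VCaP_ENZ was the start of chromosome 19, 1 to 5000000, with 270 kept regions. There 75.9%, 84.8% and 90.4% of the regions were called in VCaP16, 72.2%, 84.4% and 75.9% in VCaP_ENZ and 84.8%, 81.5% and 82.2% in VCaP_DMSO. The relative share was -3.74, 4.92 and 1.24 points in VCaP16, -2.93, 1.06 and 1.09 points in VCaP_ENZ and 5.32, 5.49 and 7.32 points in VCaP_DMSO, and again each VCaP_DMSO library stood above the other 6. The difference between VCaP_ENZ and VCaP_DMSO was -6.30 ± 1.78 points (SE, limma adjusted p = 0.0452). The call was kept in 1 of 15 other settings, with a score of at least 5 (0.0170), and the adjusted p was 0.0508 to 0.361 in the others, including each that left out a library. The difference between VCaP16 and VCaP_DMSO was -5.24 ± 1.78 points and missed the threshold (limma adjusted p = 0.0598). It passed with lists of equal length (0.0239) and without VCaP16 replicate 2 (0.00540). The bins on chromosomes 16 and 19 were the 2 of the 46 in which every library with the drug lay below every VCaP_DMSO library, a share of 4.35% where the background over 550 bins was 3.45%. In 0 of the 46 did every library with the drug lie above, with the same background of 3.45%.

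Other peak-rich bins led each comparison without passing the test. In VCaP16 against VCaP_DMSO these were the bins at chromosome 1, 20000001 to 25000000, with -5.29 ± 1.87 points (SE, limma adjusted p = 0.0711), and 200000001 to 205000000, with -4.16 ± 1.83 (0.181), and at chromosome 19, 50000001 to 55000000, with -3.79 ± 1.78 (0.223). In VCaP_ENZ against VCaP_DMSO they were the bin at chromosome 17, 70000001 to 75000000, with -5.25 ± 1.82 points (adjusted p = 0.144), and 3 bins of chromosome 19 starting at 10000001, 40000001 and 45000001, with -4.91, -4.58 and -4.11 points (0.152, 0.210 and 0.227). Between VCaP16 and VCaP_ENZ the bins of chromosomes 21 (from 40000001), 15 (from 90000001) and 6 (from 25000001) had -4.96, -4.80 and -4.34 points. Those of chromosomes 14 (from 100000001) and 9 (from 130000001) had 4.77 and 4.54 points, with adjusted p of 0.120 to 0.190 for all 5. Against the 6 VCaP libraries, VCaP16 had -4.55 points in the chromosome 1 bin from 20000001 (limma adjusted p = 0.0828), -3.94 in the chromosome 19 bin from 50000001 (0.128), -3.53 in the chromosome 6 bin from 25000001 (0.201) and 3.50 in the chromosome 14 bin from 100000001 (0.205).

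Chromosome 19 was singled out here after its values were seen. Its difference from VCaP_DMSO was -3.09 points in VCaP16 and -3.60 points in VCaP_ENZ. On chromosome 16 these differences were -6.65 and -3.74 points, and on chromosome 4 they were -3.20 and -1.60 points. The 1840 regions of chromosome 19 in peak-rich bins had relative shares of 3.92, 5.81 and 3.15 points in VCaP16, 4.96, 3.25 and 3.15 points in VCaP_ENZ and 6.92, 7.26 and 7.98 points in VCaP_DMSO. Every VCaP_DMSO library was above the other 6 libraries. With lists of equal length the values were 4.91, 5.44 and 6.004 points in VCaP16, 5.06, 5.78 and 3.15 points in VCaP_ENZ and 7.83, 7.29 and 7.93 points in VCaP_DMSO, and this separation remained. Of the 7 bins, 7 had an estimate below 0 in VCaP16 and 6 in VCaP_ENZ, each against VCaP_DMSO. Of the 39 peak-rich bins on other chromosomes, 28 and 26 did. Among the 19 chromosomes with peak-rich bins, every library with the drug lay below every VCaP_DMSO library on 2, chromosomes 16 and 19, and above on 0. Chromosome 16 has 1 peak-rich bin, so its values are those of the bin described above and add nothing to them. No background share is given for this count of chromosomes. Without chromosome 19 the relative share was 0.80 points lower in VCaP_ENZ than in VCaP_DMSO, and the groups overlapped (exact permutation p = 0.3). The mean was below that of VCaP_DMSO on 13 of the 19 chromosomes in VCaP16 and on 13 in VCaP_ENZ, and above it on the other 6 in each case. The regions of the single peak-rich bin of chromosome 7, 100000001 to 105000000, had relative shares of 6.44, 0.20 and 5.26 points in VCaP_ENZ and -1.88, -0.37 and 0.72 points in VCaP_DMSO, which overlapped. Those of the single peak-rich bin of chromosome 13 had 6.12, 4.91 and -1.39 points in VCaP16, 6.22, 0.93 and 6.54 points in VCaP_ENZ and 0.90, -0.51 and 1.08 points in VCaP_DMSO, and overlapped too.

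Regions called in every library of one group and in none of the other are the clearest differences that peak lists can show, although 3 against 3 libraries allow no test of a single region. In peak-rich bins 185 regions (1.67%) were called in all VCaP16 and no VCaP_DMSO libraries, where the background over all kept regions was 2.32%. The reverse held for 72 regions (0.651%, background 0.765%). Between short exposure and solvent, 66 regions (0.597%, background 0.932%) were called in all VCaP_ENZ and no VCaP_DMSO libraries, and 95 (0.859%, background 0.805%) in all VCaP_DMSO and no VCaP_ENZ libraries. Over all kept regions the corresponding counts were 602 and 520. The difference between these balances was not tested. Between VCaP16 and VCaP_ENZ the counts were 155 (1.40%, background 1.61%) and 50 (0.452%, background 0.587%). Against the 6 VCaP libraries, 70 regions (0.633%, background 0.776%) were called in every VCaP16 library and none of those 6, and 8 (0.0724%, background 0.127%) the other way round. Among regions not called in all 9 libraries, the VCaP16 regions missing from VCaP_DMSO made up 4.04% in peak-rich bins and 4.64% in all, and the VCaP_ENZ regions missing from VCaP_DMSO 1.44% and 1.87%. The VCaP_DMSO regions missing from VCaP_ENZ made up 2.08% in peak-rich bins and 1.61% in all. On this base the VCaP_DMSO regions missing from VCaP16 made up 1.57% in peak-rich bins and 1.53% in all, and the VCaP16 regions missing from VCaP_ENZ 3.39% and 3.23%, so that both shares were above that of all regions, where among all kept regions they were below. The 185 regions lay in 45 of the 46 bins, with at most 9 in one. With lists of equal length 134 VCaP16 regions were missing from VCaP_DMSO (1.21%, against 1.63% of all kept regions) and 129 the other way round (1.17% against 1.34%). Between VCaP16 and VCaP_ENZ the counts were then 116 (1.05% against 1.22%) and 88 (0.796% against 1.00%).

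**Figure D5:**
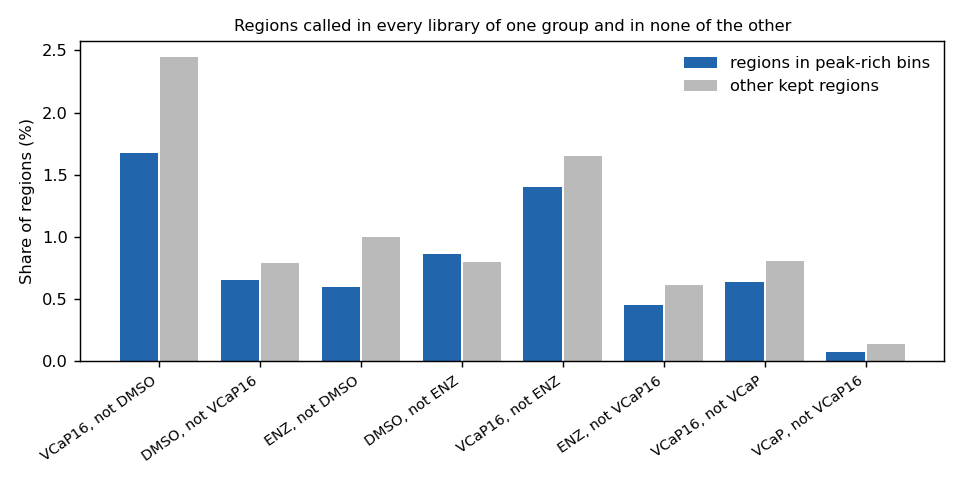
Share of regions, in percent, called in every library of one group and in no library of the other, for the 11053 regions in peak-rich bins (blue) and the 53516 other kept regions (grey). The blue bars are lower except for regions called in VCaP_DMSO and not in VCaP_ENZ, where they stand at 0.859% against 0.794%.

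The regions named next ranked best, by the median position of their peaks in the lists that call them, in each direction. The scores are the authors'. Of the 24 entries, 16 kept their pattern when a peak had to cover 50% of the region. Among VCaP16 regions missing from VCaP_DMSO, chromosome 17, 219344 to 219741, came first, scored 25.2 to 41.0 with a median position 13.6% from the top, and 1 VCaP_ENZ library called it. On chromosome 20, the stretch 49338320 to 49338763 (18.3 to 31.3) was open in the 3 VCaP_ENZ libraries as well. On chromosome 11, 66140814 to 66141159 (23.7 to 28.3) was shared with 2 VCaP_ENZ libraries. VCaP_DMSO regions missing from VCaP16 ranked lower, between 35.3% and 39.6% from the top. The best, chromosome 7, 104431155 to 104431931, was also called in 2 VCaP_ENZ libraries but lost the pattern at 50% coverage. Chromosome 15, 90352340 to 90352864, was called by all VCaP libraries, scored 12.8 to 19.4 in VCaP_DMSO, and kept the difference from VCaP_DMSO but not that from all 6. Chromosome 19, 13101963 to 13102426, scored 15.8 to 16.0 and was called in 1 VCaP_ENZ library.

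Regions open with short exposure and not with the solvent had low ranks, with median positions of 44.8%, 51.8% and 56.5%. The first, at chromosome 14, 103625022 to 103625507, was called in 2 VCaP16 libraries, and the next, at chromosome 1, 154884126 to 154884765, in all 3, and both lost the pattern at 50% coverage. The last, at chromosome 11, 63642113 to 63642295, kept it and was called in 1 VCaP16 library. VCaP_DMSO regions missing from VCaP_ENZ stood higher in their lists, at 22.3% to 36.5% from the top. They were led by chromosome 16, 2438758 to 2439196, inside the bin described above, which scored 21.2 to 29.8 in VCaP_DMSO and was called in 1 VCaP16 library. Chromosome 11, 65017864 to 65018139, scored 20.2 to 28.3 in VCaP_DMSO and was called in 2 VCaP16 libraries. A stretch of chromosome 1, 29839898 to 29840248, was also called in all 3 VCaP16 libraries.

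Of the regions called in VCaP16 and in neither VCaP group, the best ranked was chromosome 20, 48747623 to 48747838, which scored 16.6 to 33.5. Behind it stood chromosome 1, 9961797 to 9962176 (14.6 to 30.9), and chromosome 19, 44290849 to 44291304 (12.3 to 20.8). All 3 kept the pattern at 50% coverage. Chromosome 11, 62630034 to 62630381, was open in the VCaP16 and VCaP_DMSO libraries and missing from all VCaP_ENZ lists. Open in both VCaP groups and absent from the VCaP16 lists were chromosome 1, 27317060 to 27317545, and chromosome 9, 112553366 to 112553988, with median positions of 50.8% and 66.8%, and neither kept that pattern at 50% coverage. A pair of regions in the chromosome 16 bin, 1075339 to 1075541 and 1116485 to 1117171, were called in 3 VCaP_ENZ, 2 VCaP_DMSO and 0 VCaP16 libraries, and the first kept its pattern at 50% coverage.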

How the data were processed

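The authors deposited a separate peak list for each of the 9 libraries. The submitters' processing notes mention BWA (0.7.15-r1140), MACS2 (2.2.7.1), HOMER (3.12) and the build hg19, with no role or setting for any of them. Read filtering and the Tn5 offset are not given there. Per the labels' protocols, cells were fixed with formaldehyde, and a single-cell preparation is also described; the lists were treated as bulk. The deposited score was read as a −log10 p-value or −log10 q-value, its minimum being 2.00, and served to rank and filter peaks within a list. Depth is unknown, and the length of a list can move with it; subtracting the overall share corrects this in part.

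Positions are hg19, counted from 1. Any peak overlapping a region by 1 bp or more made it called. Two-sided exact permutation tests in Python 3.11.15 served for libraries, and bins were compared with limma 3.58.1 in R 4.3.3, fitted to all 9 libraries with a variance trend on regions per bin and Benjamini-Hochberg adjustment. The limma step was also run on simulated calls. These were drawn independently for each region and library, without variation of a library from bin to bin. They therefore cannot show how often real bins are called falsely. The text names the 5 densest bins, 5 on either side of the threshold, 5 with the smallest p per comparison, the 3 best-ranked regions per direction and the 5 widest regions. The extremes of share, the fullest windows and the accounts of chromosomes 7, 13 and 19 were chosen after their values were seen. Members and lists were chosen with earlier results of these data known. None of 36 pairs of libraries had identical calls. Same-numbered libraries did not deviate together (correlations of -0.117 to 0.0378 over 9 pairs), so they were not paired. Alternatives were lists of equal length, a score of at least 5, 50% coverage, other bin limits and offsets, all merged regions, log odds, no trend, a replicate block and leaving out each library or chromosome 19. Gene tables on another build were not used.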

Additional observations from a re-analysis of the deposited data

How the results depend on the processing

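Of 797 recomputed values, 565 kept their direction, their side of the threshold or, for counts, stayed near the main value. Another 181 were counts that moved further from the main value, up or down, also to 0. Of the rest, 10 changed sign, 34 lost a call and 7 gained one. The cause was not tested. The lower relative share and peak share in VCaP_ENZ and in VCaP16, each against VCaP_DMSO, kept their sign in all 17 and 13 alternatives. In each case 1 of these, the replicate block, changes only the test and could not alter the sign. Against VCaP_ENZ the VCaP16 relative share turned to 0.263 points with lists of equal length, 0.445 at 50% coverage, 1.23 among regions not called in all 9 libraries and 0.0273 on the log2 odds scale, and against the 6 VCaP libraries to 0.0358 among regions not called in all 9. With lists of equal length the peak share turned to 0.108 points against VCaP_ENZ and 0.00254 against the 6 VCaP libraries. Leaving out 1 library gave relative share differences of -2.39 to -0.656 (VCaP16 against VCaP_DMSO), -1.44 to -0.898 (VCaP_ENZ against VCaP_DMSO), -1.23 to 0.499 (VCaP16 against VCaP_ENZ) and -1.81 to -0.0784 points (VCaP16 against 6 VCaP). The peak share differences ranged over -0.785 to -0.125, -0.360 to -0.193, -0.495 to 0.165 and -0.640 to 0.0203 points in the same order. Peak-rich bins called lower in VCaP16 against VCaP_DMSO numbered 2 with equal lists or a score of at least 5. They numbered 0 at 50% coverage, with all merged regions or without a variance trend, and 0 to 3 without 1 library. Among all tested bins the counts were 9, 11, 5, 8 and 7 in this order, and 1 to 12 without 1 library. In VCaP_ENZ against VCaP_DMSO 0 peak-rich bins were called lower with equal lists, 50% coverage, all merged regions or regions not called in all 9. The number was also 0 with log odds, bins with at least 1 kept region or no trend, and 0 without any 1 library. Among all tested bins the counts were 1, 2, 0, 1, 0, 1 and 0 in this order, and 0 without any 1 library. Between VCaP16 and VCaP_ENZ 0 to 1 peak-rich bins were called lower without 1 library, and 0 to 5 among all tested bins. Against the 6 VCaP libraries 0 were called lower with a score of at least 5, 50% coverage, all merged regions or regions not called in all 9. The number was also 0 with log odds or no trend, and 0 to 3 without 1 library. Among all tested bins the counts were 11, 6, 8, 10, 13 and 3 in this order, and 0 to 12 without 1 library. With equal lists 1 peak-rich bin was called higher in VCaP16 against VCaP_ENZ and 2 against the 6 VCaP libraries. Among all tested bins 1 and 7 were called higher. With a replicate block, 1, 0 and 0 peak-rich bins were called lower in VCaP16 and VCaP_ENZ, each against VCaP_DMSO, and VCaP16 against 6 VCaP. Among all tested bins the counts were 5, 0 and 8. The exact permutation p of the relative share was 0.5, 0.25 and 0.333 in the same order. Those against VCaP_DMSO rest on 3 pairs and cannot go below 0.25, a limit that does not hold against the 6 VCaP libraries. Each number correlated best with its own in 6 of 18 cases. Counts of regions called in every library of one group and none of the other changed with list length: with equal lists 129, 88 and 26 regions were called in VCaP_DMSO, VCaP_ENZ and all 6 VCaP libraries and missing from VCaP16. The last count was 8 in the main setting, 13 with a score of at least 5 and 5 at 50% coverage. Shares over all kept regions are not given beside these counts. With bins of at least 150 kept regions the counts were 504 and 177 (VCaP16 without VCaP_DMSO and the reverse), 181 and 220 (VCaP_ENZ, VCaP_DMSO), 372 and 122 (VCaP16, VCaP_ENZ) and 168 and 26 (VCaP16, 6 VCaP). With at least 250 they were 56 and 24, 20 and 40, 52 and 22, and 21 and 3. Each bin limit takes a set of regions of another size, and no shares are given here. The counts at different limits therefore cannot be compared. Leaving out 1 library loosens the rule, so the counts in peak-rich bins could only stay or rise, and their size tests nothing. Without 1 library they ranged over 257 to 419 and 102 to 166, 112 to 196 and 131 to 236, 218 to 384 and 81 to 148, and 80 to 197 and 9 to 38, in the same order.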
